A study of Mus musculus with 4 samples.

Results

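The RAB GTPases are small membrane switches that direct vesicle traffic, and their transcripts were followed in B16 mouse melanoma cells with and without EM-plasma. A gene was taken as a member when its symbol was Rab, a number and at most 1 letter from a to d, and when it had at least 40 reads over the 4 libraries together. Of 53465 rows in the count table, 59 had such a symbol and 48 of these reached the read minimum. The 48 were also the RAB rows that passed the filter of the test, in which 13664 genes were compared.

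The libraries came from poly(A) RNA of B16 cells, a pigment-forming tumour line. In 2 libraries the cells had received EM-plasma for 4 h, which the labels name as plasma treated with exosome-mimetic nanovesicles, and the other 2 were labelled control. Neither the nature of the plasma nor what the controls received is given in the sources used here. When the controls were collected is not given either. No label says that the 2 libraries of a group are separate cultures, so every p-value here reflects the variation between these libraries alone, which may be technical. Total counts were 46295133 and 46557637 in EM-plasma and 49367932 and 47664388 in control libraries. All 9 melanocyte markers checked, Mitf, Sox10, Dct, Tyr, Tyrp1, Pmel, Mlana, Slc45a2 and Oca2, had reads in every library, and they summed to 11541 and 11734 CPM in EM-plasma and to 11371 and 11447 CPM in control cells. Most of that sum was Tyrp1, Dct and Pmel. Tyr, the gene of tyrosinase, was at 35.3 and 38.2 CPM in EM-plasma and at 40.5 and 45.0 CPM in control cells (log2 fold change -0.22, adjusted p = 0.0532), and its part in the results was not tested. Ptprc and Epcam, markers of leukocytes and epithelium, had 0 reads. Pecam1, of endothelium, and Col1a1, of fibroblasts, brought the sum of all 4 such markers to 4.38 and 3.52 CPM in EM-plasma and 2.70 and 2.78 CPM in control cells. CPM are read counts scaled to a common library size. Col1a1 made up nearly all of that sum, with 199 and 158 reads in EM-plasma and 126 and 124 reads in control libraries (adjusted p = 0.0641), and its part in the results was not tested.

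RAB proteins carry a lipid anchor and cycle between a GTP-bound form on a membrane and a GDP-bound form held in the cytosol. Exchange factors load GTP, GTPase-activating proteins end the active state, GDI proteins extract the inactive form, and effectors such as motors and tethers are recruited by the active one. Each organelle has its own RABs, and pigment cells use a further set to fill melanosomes with enzymes and to hold them near the cell edge.

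In EM-plasma-treated cells 2 of the 48 RAB transcripts fell and 0 rose. The 2 were Rab27a, which tethers melanosomes to actin and was 1.12-fold lower, and Rab7b, a RAB of the late endosome and trans-Golgi network with low read counts and 3.80-fold lower. Over all genes tested, 2.88% were called lower and 3.34% higher, so the count of members is near that background. At an unadjusted p below 0.05 there were 9 members, 8 lower and 1 higher, against 19.5% of all genes. Of the 13664 genes tested, 1345 were lower and 1326 higher at that threshold. DESeq2 and limma voom also called Rab27a and Rab7b and no other member. Adjusted p-values are from edgeR's quasi-likelihood test, and log2 fold changes are EM-plasma over control.

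**Figure D1:**
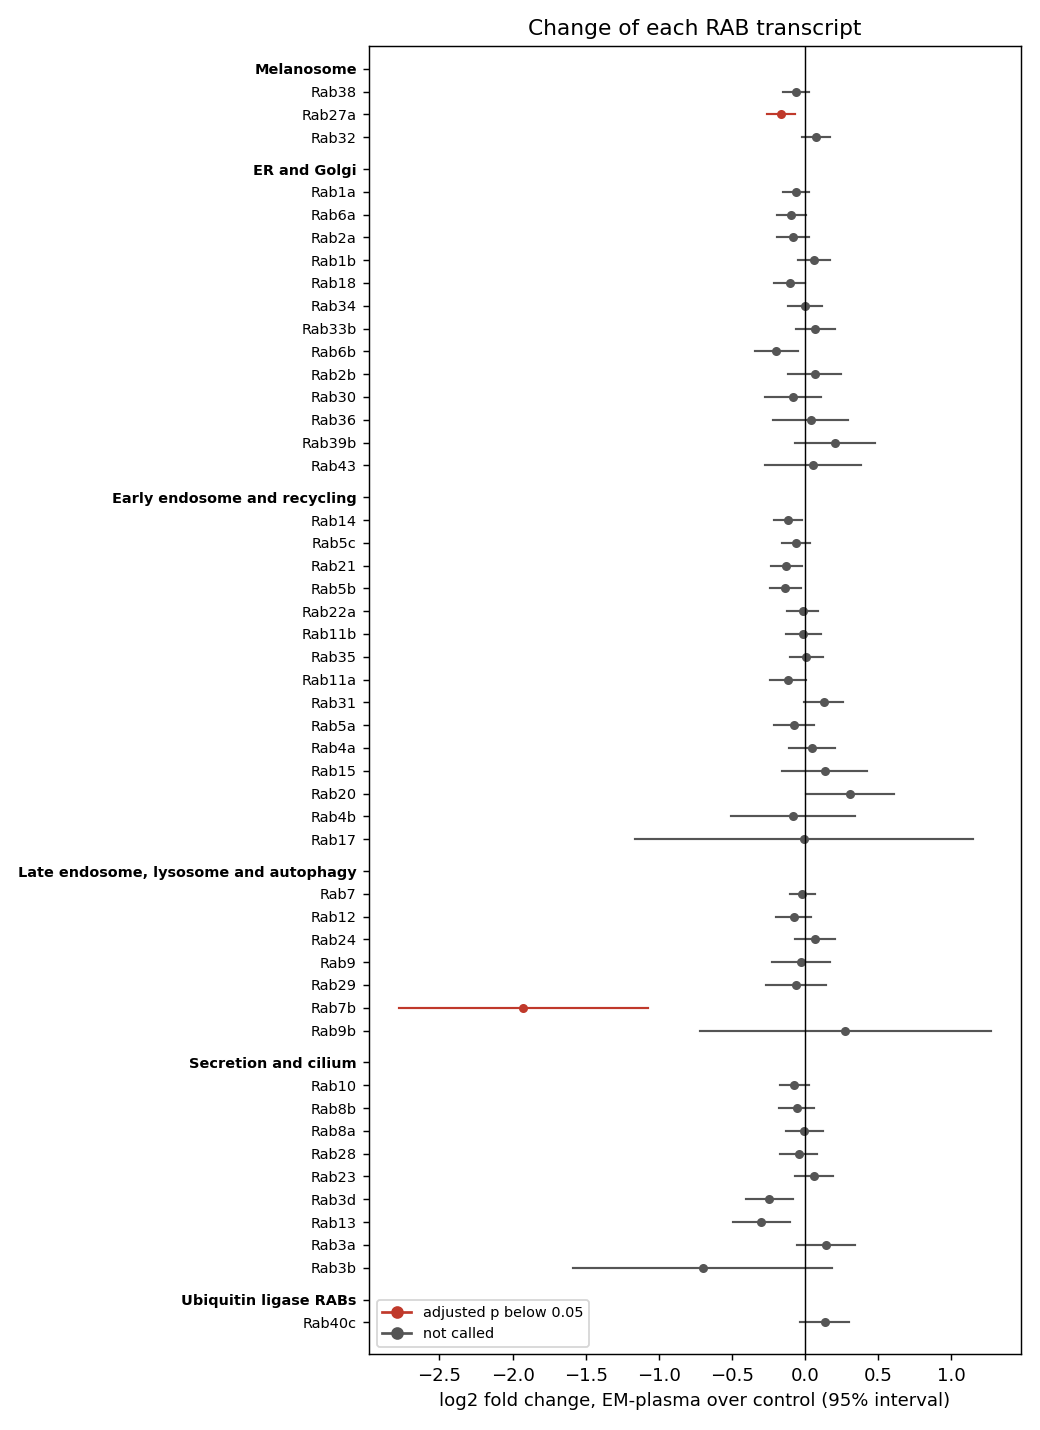
Log2 fold change of each of the 48 RAB transcripts, EM-plasma over control, with its 95% interval, grouped by the membrane the RAB works on and ordered within a group by level in control libraries. Red marks the 2 members with an adjusted p below 0.05, Rab27a and Rab7b, and most other intervals cross 0.

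The start sites of the melanosome RABs are shown first because Rab27a fell while Rab32, which acts in the same organelle, had no call. Myo5a, the motor that Rab27a recruits, fell too and is set beside them. Each run is the 250 bases before an annotated start, from RefSeq on GRCm38.p6, read 5′ to 3′ on the strand of the gene, and capitals mark CACGTG or CATGTG on either strand. Both words are forms of the E-box, and factors of the MITF and MYC families are known to bind such boxes. The first Rab27a start is at chr9:73044560-73044809 and the second at chr9:73063898-73064147, both on the plus strand. The Rab32 run is at chr10:10558208-10558457 on the minus strand and the Myo5a run at chr9:75070956-75071205 on the plus strand.
Rab27a first start: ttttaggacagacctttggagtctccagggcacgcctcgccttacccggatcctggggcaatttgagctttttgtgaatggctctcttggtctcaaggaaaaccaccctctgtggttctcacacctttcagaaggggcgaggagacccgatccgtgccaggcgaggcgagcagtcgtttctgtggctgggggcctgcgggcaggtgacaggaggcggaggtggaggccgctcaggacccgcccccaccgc
Rab27a second start: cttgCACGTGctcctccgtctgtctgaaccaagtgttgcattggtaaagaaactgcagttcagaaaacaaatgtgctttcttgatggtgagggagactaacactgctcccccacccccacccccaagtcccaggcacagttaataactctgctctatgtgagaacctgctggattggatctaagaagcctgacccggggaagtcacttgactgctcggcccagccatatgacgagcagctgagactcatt
Rab32: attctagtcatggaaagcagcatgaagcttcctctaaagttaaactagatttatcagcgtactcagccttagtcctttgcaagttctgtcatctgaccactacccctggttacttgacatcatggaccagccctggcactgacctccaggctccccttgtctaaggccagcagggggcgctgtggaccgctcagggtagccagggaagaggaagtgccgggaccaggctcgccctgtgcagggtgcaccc
Myo5a: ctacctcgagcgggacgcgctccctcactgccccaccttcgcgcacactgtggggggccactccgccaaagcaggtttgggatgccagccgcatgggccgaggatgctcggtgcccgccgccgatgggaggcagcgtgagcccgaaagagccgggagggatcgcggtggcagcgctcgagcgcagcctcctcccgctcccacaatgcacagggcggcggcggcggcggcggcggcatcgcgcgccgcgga
The second Rab27a run holds 1 CACGTG, whose first base lies at -246 from the start, and the other 3 runs hold neither word. Of 32851 promoter windows of this length in the table, 6.02% held CACGTG and 12.3% held CATGTG. Of the 48 members 41 had an entry, with 53 windows in all. CACGTG was in 5 of the 53 (9.43%) and CATGTG also in 5. Rab38, Rab7b and Sytl2 are named only.

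Rab27a, Rab32 and Rab38 are the RABs best known from pigment cells. Rab32 and Rab38 bring melanin-forming enzymes to the growing melanosome, and Rab27a then links the pigmented organelle through melanophilin to the motor myosin Va; mice that lack Rab27a, melanophilin or myosin Va have diluted coats. Rab27a (chromosome 9, 73044854 to 73097629, GRCm38, ENSMUSG00000032202) was at 211 and 211 CPM in EM-plasma libraries, against 229.6 and 243 CPM in control libraries. Both treated libraries were below both controls and almost equal to each other. Its log2 fold change was -0.16 (SE 0.046, 95% interval -0.26 to -0.070, adjusted p = 0.0294). In such bulk libraries, fewer cells with the transcript and less of it per cell cannot be told apart.

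Rab38 was at 288 and 290.3 CPM in EM-plasma and at 299.8 and 305 CPM in control libraries. The groups did not overlap, with treated libraries lower, but the difference did not pass the test (log2 fold change -0.06, SE 0.043, adjusted p = 0.456). Rab32 was at 180.4 and 188 CPM in EM-plasma and at 171 and 178 CPM in control libraries. Here the treated libraries lay just above the controls (log2 fold change 0.08, SE 0.048, adjusted p = 0.407). The 95% interval was -0.15 to 0.025 for Rab38 and -0.022 to 0.17 for Rab32. Of all genes tested 49.1% had groups that did not overlap, so such a separation of a single gene is common in these libraries. How often 3 genes all separate was not tested. The 3 took 17.1% and 17.2% of all RAB reads in EM-plasma and 17.2% and 17.3% in control libraries.

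Among 14 tested partners of melanosome transport and cargo delivery, 0 rose and 2 fell, Myo5a and Sytl2, and their log2 fold changes had a median of 0.01. Among the 14, 4 had an unadjusted p below 0.05, namely Mlph and Ankrd27 on the higher side and the 2 that fell. Over all genes 2.88% were called lower and 19.5% had such an unadjusted p, and nothing is read from so short a list. Myo5a, the myosin Va heavy chain, was at 1026 and 1021 CPM in EM-plasma and at 1142 and 1172 CPM in control libraries (log2 fold change -0.18, SE 0.038, adjusted p = 0.00369). Sytl2, a Rab27a effector that anchors melanosomes at the plasma membrane, was at 172 and 173 CPM in EM-plasma and at 198 and 206 CPM in control libraries (log2 fold change -0.22, SE 0.047, adjusted p = 0.00274). In both genes the treated libraries were nearly equal and lay under both controls. Mlph, the gene of melanophilin, was at 1008 and 1015 CPM in EM-plasma and at 965 and 933 CPM in control libraries. It lay on the other side of 0 and did not pass the test (log2 fold change 0.09, SE 0.039, adjusted p = 0.171).

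Hps1 and Hps4 encode the complex that activates Rab32 and Rab38, and Ankrd27 encodes VARP, an effector of both. Hps1 had a log2 fold change of 0.04 (adjusted p = 0.816) and Hps4 of 0.03 (adjusted p = 0.860), and in both genes the groups overlapped. Ankrd27 was at 75.7 and 79.0 CPM in EM-plasma and at 71.1 and 71.6 CPM in control libraries (log2 fold change 0.12, SE 0.056, adjusted p = 0.238). Of the remaining tested partners, the adaptor subunits Ap3b1 and Ap3d1, the sorting genes Hps3, Hps5, Hps6, Dtnbp1 and Bloc1s6 and the tethering gene Vps33a, none was called. Myrip, another Rab27a effector, was below the filter.

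The calls in this group rest on few libraries. That of Rab27a ended without EM-plasma 1 (adjusted p = 0.471), EM-plasma 2 (0.470) or control 2 (0.188) and held without control 1 (0.0350), while its log2 fold change stayed between -0.21 and -0.12. Those of Myo5a and Sytl2 ended in the same 3 fits, with adjusted p = 0.226, 0.258 and 0.0810 for Myo5a and 0.204, 0.176 and 0.0907 for Sytl2.

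**Figure D2:**
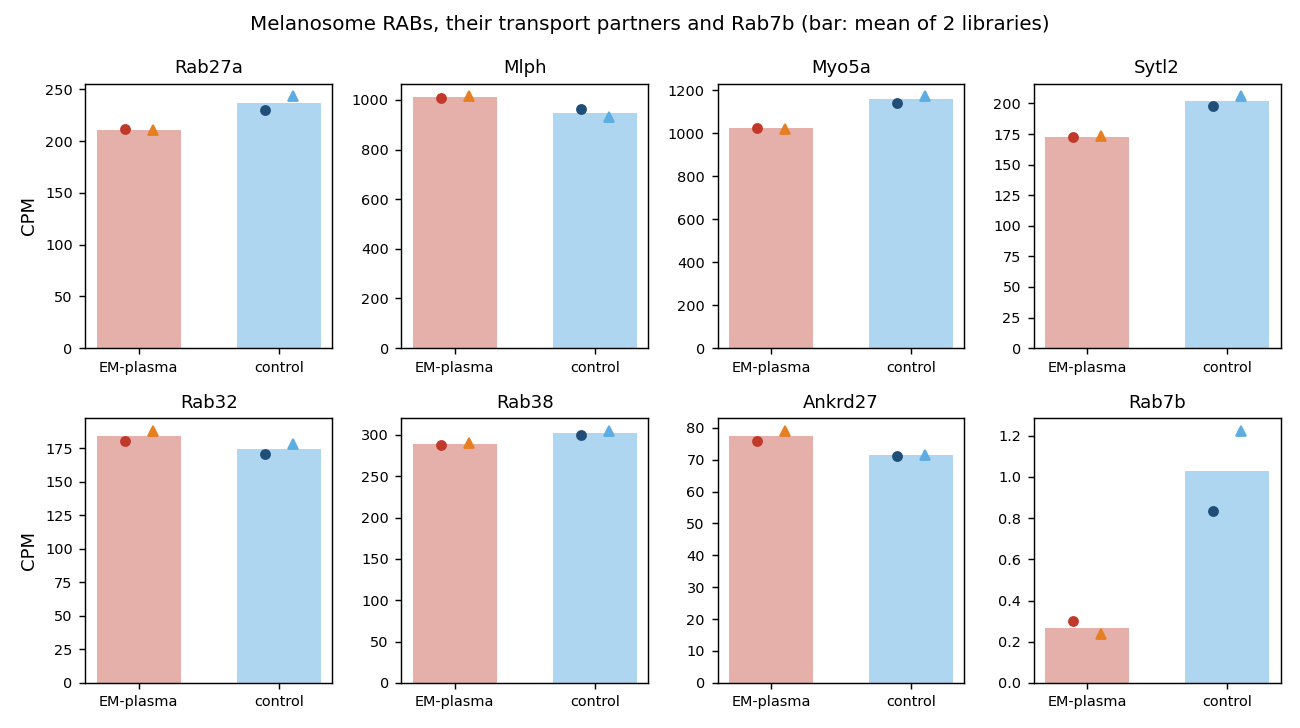
CPM of Rab27a, Mlph, Myo5a, Sytl2, Rab32, Rab38, Ankrd27 and Rab7b, with EM-plasma on the left and control on the right of each panel; bars are means of 2 libraries, circles replicate 1 and triangles replicate 2. Rab27a, Myo5a, Sytl2 and Rab7b are lower in both treated libraries, as is Rab38, which was not called. Mlph is at 1008 and 1015 CPM in EM-plasma against 965 and 933 CPM in control.

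Rab7 controls fusion of late endosomes with lysosomes, and Rab7b acts between late endosomes and the trans-Golgi network. Rab7 was at 533 and 531 CPM in EM-plasma and at 531 and 547 CPM in control libraries, with overlapping groups (log2 fold change -0.02, 95% interval -0.10 to 0.066, adjusted p = 0.865). Rab7b (chromosome 1, 131688695 to 131715439, GRCm38, ENSMUSG00000052688) had 14 and 11 reads in EM-plasma, against 41 and 58 reads in control libraries. In CPM it was at 0.300 and 0.236 in EM-plasma and at 0.833 and 1.22 in control libraries. The 25 reads of both treated libraries together stood against 99 of both controls, with every treated library below every control. The log2 fold change was -1.93 (SE 0.41, 95% interval -2.78 to -1.07, adjusted p = 0.00394). The low counts leave the size of this fall uncertain, and Rab7b made up at most 0.607% of the summed Rab7 and Rab7b level per length in any library on the median transcript length. The call of Rab7b ended without EM-plasma 2 (adjusted p = 0.0517), control 1 (0.0522) or control 2 (0.215) and held without EM-plasma 1 (0.0165).

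The other 5 late endosome, lysosome and autophagy members, Rab9, Rab9b, Rab12, Rab24 and Rab29, were not called. Rab12, which takes part in traffic from recycling endosomes to lysosomes, was at 67.1 and 64.6 CPM in EM-plasma and at 66.6 and 72.4 CPM in control libraries (log2 fold change -0.08, adjusted p = 0.514). Rab9b, a rare relative of the Rab9 that returns receptors to the trans-Golgi network, had 23 and 18 reads in EM-plasma and 11 and 24 in control libraries. Its log2 fold change of 0.28 had a 95% interval from -0.72 to 1.27. Without control 1 the value was -0.20 and without control 2 it was 0.97, so its direction rests on 1 library.

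The 13 members of the ER and Golgi had 0 calls, 1 unadjusted p below 0.05 and a median log2 fold change of -0.0020. Over all genes 6.21% were called, 19.5% had such an unadjusted p and the median was -0.0027. Rab1a and Rab1b carry vesicles from the ER to the Golgi. Rab1a was at 324 and 337 CPM in EM-plasma and at 338 and 351 CPM in control libraries (log2 fold change -0.06, 95% interval -0.15 to 0.029, adjusted p = 0.482). Rab1b was at 144 and 137 CPM in EM-plasma and at 142 and 127 CPM in control libraries, and its groups overlapped (log2 fold change 0.06, 95% interval -0.048 to 0.17, adjusted p = 0.577). The others were Rab2a, Rab2b, Rab6a, Rab6b, Rab18, Rab30, Rab33b, Rab34, Rab36, Rab39b and Rab43. Their log2 fold changes ran from -0.19 in Rab6b, one of the RABs of retrograde Golgi transport, to 0.20 in Rab39b.

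The 15 members of early and recycling endosomes had 0 calls, against 6.21% of all genes. Of the 15, 4 had an unadjusted p below 0.05, namely Rab5b, Rab14 and Rab21 on the lower side and Rab20 on the higher. Over all genes 19.5% had one. Rab5c, one of the RABs of early endosome fusion, was at 214 and 210.1 CPM in EM-plasma and at 226 and 217 CPM in control libraries (log2 fold change -0.06, adjusted p = 0.494). Rab14, which links endosomes and the trans-Golgi network, was at 218 and 221 CPM in EM-plasma and at 232 and 244 CPM in control libraries (log2 fold change -0.11, SE 0.046, adjusted p = 0.145). In both genes the treated libraries were below the controls, by a few percent. Rab20, a RAB of phagosomes and endosomes, was at 5.90 and 6.08 CPM in EM-plasma and at 5.44 and 4.22 CPM in control libraries. With all 4 libraries this was the largest positive log2 fold change among the 48 members, 0.31 (SE 0.15, 95% interval 0.010 to 0.61), and it did not pass the test (adjusted p = 0.235). Without control 2, the lowest of the 4 libraries, it was 0.14, below that of Rab9b, and without control 1 it was 0.50. The remaining members, Rab4a, Rab4b, Rab5a, Rab11a, Rab11b, Rab15, Rab17, Rab22a, Rab31 and Rab35, had log2 fold changes from -0.11 in Rab11a to 0.13 in Rab15.

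The 9 members of secretion and the cilium also had 0 calls, with 2 at an unadjusted p below 0.05. Over all genes 6.21% were called and 19.5% had such an unadjusted p. Rab8a and Rab10 send Golgi and endosome vesicles to the cell surface. Rab10 was at 161 and 158 CPM in EM-plasma and at 162 and 174 CPM in control libraries (log2 fold change -0.07, adjusted p = 0.444). Rab8a was at 74.3 and 81.4 CPM in EM-plasma and at 74.2 and 82.0 CPM in control libraries, and its log2 fold change was -0.0040 (95% interval -0.13 to 0.12, adjusted p = 0.982). These values of Rab8a overlapped almost completely.

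Rab13, which takes part in delivery to cell junctions, came closest to a call. It was at 11.3 and 11.8 CPM in EM-plasma and at 14.2 and 14.1 CPM in control libraries, clearly apart (log2 fold change -0.30, SE 0.094, adjusted p = 0.0548). Rab3b, one of the RABs of regulated secretion, had 11 and 31 reads in EM-plasma and 39 and 32 reads in control libraries. Here 1 treated library was well below the other 3, and the log2 fold change of -0.70 had a 95% interval from -1.59 to 0.18 (adjusted p = 0.398). Without EM-plasma 1 its log2 fold change was -0.14 and without EM-plasma 2 it was -1.63. Rab3d, which with Rab3a acts on secretory granules, had a log2 fold change of -0.24 (adjusted p = 0.0596), and Rab3a one of 0.15 (adjusted p = 0.443). Rab8b, Rab23 and Rab28 had log2 fold changes from -0.06 to 0.06.

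Rab40c, which pairs a RAB fold with a motif for a ubiquitin ligase, was the single member of its kind above the minimum. It was at 22.4 and 20.7 CPM in EM-plasma and at 21.0 and 18.2 CPM in control libraries, with overlapping groups (log2 fold change 0.13, SE 0.083, adjusted p = 0.402).

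**Figure D3:**
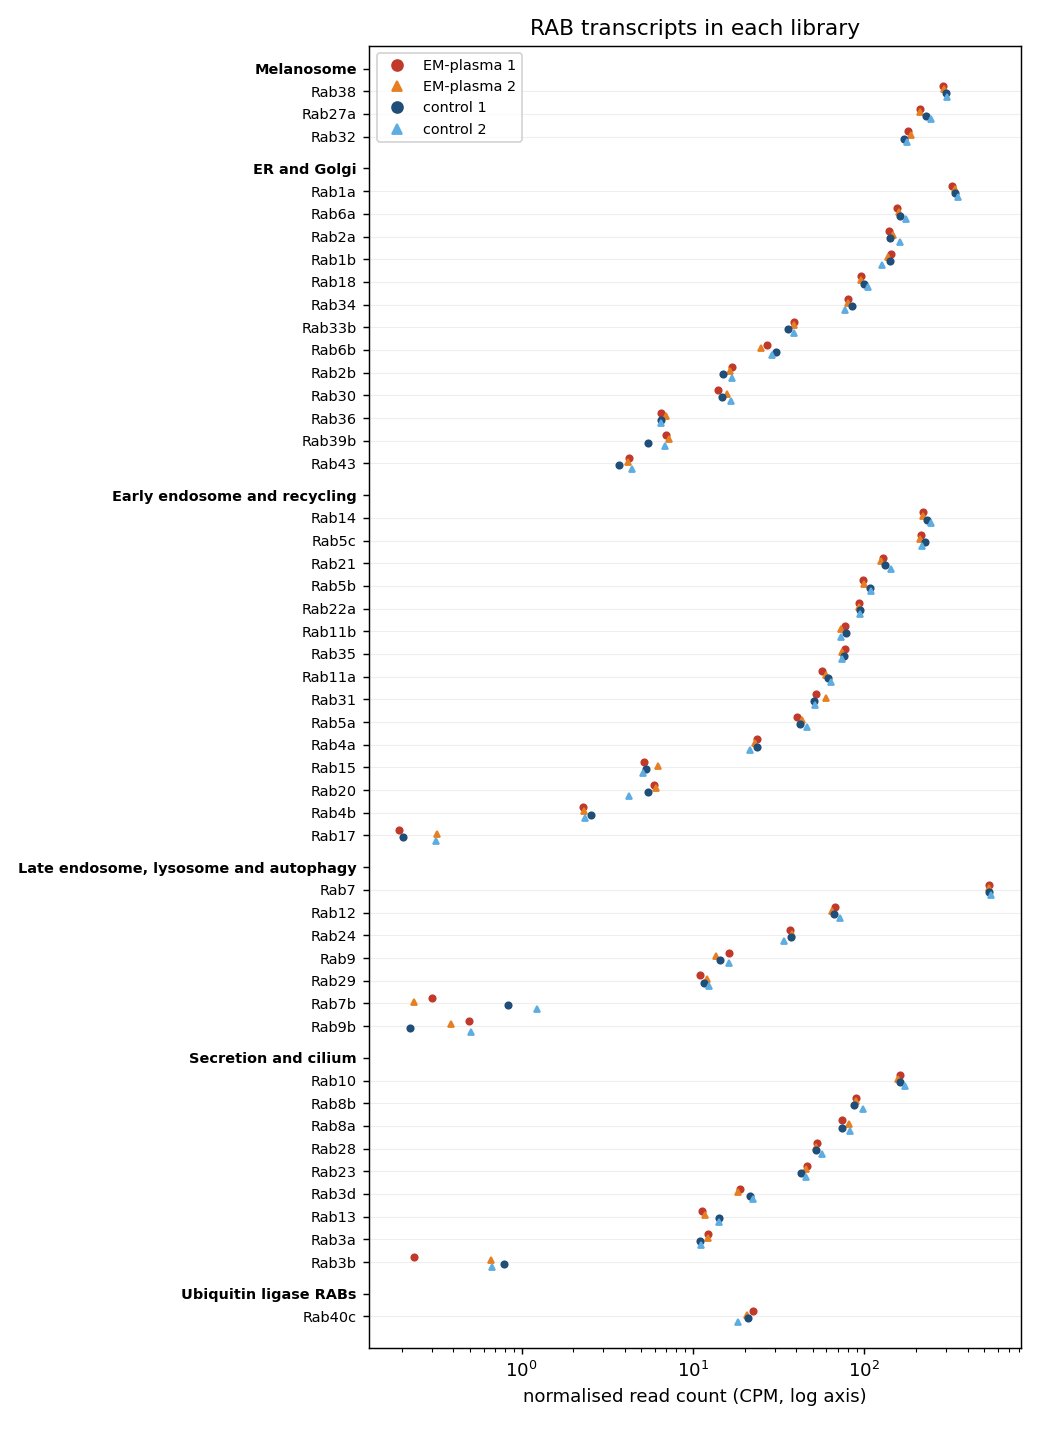
CPM of the 48 RAB transcripts in each library on a log axis, grouped by membrane; red and orange are the EM-plasma libraries and dark and light blue the control libraries, with circles for replicate 1 and triangles for replicate 2. The points of most genes lie almost on top of each other, and the spread opens for the few members near 1 CPM or less, among them Rab7b, Rab3b, Rab9b and Rab17.

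Over the family, 31 of 48 log2 fold changes were below 0 (64.6%), against 50.9% of all genes, and the median was -0.035, against -0.0027 over all genes. With libraries scaled by their totals alone 28 of 48 were below 0, and the shift of all genes between scalings was at most 0.011 on the log2 scale. Without control 2 the median was -0.0079 and without control 1 it was -0.086. In 25 members the groups did not overlap (52.1%), 18 of them lower and 7 higher in EM-plasma, against 24.8% and 24.3% of all genes for each direction. The 95% interval lay wholly within 1.2-fold in either direction for 31 of 48 members (64.6%), against 52.8% of all genes tested. Together the members held 0.401% and 0.400% of all reads in EM-plasma and 0.406% and 0.417% in control libraries.

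Levels between genes are compared per length, as CPM per kb of the median annotated transcript. Rab7 was highest at a mean of 323 CPM per kb over the 4 libraries, and it was also first when the longest transcript was used. Rab38 came 3rd on the median length, at 274 CPM per kb, and 2nd on the longest. Rab14 was 2nd on the median length, at 313 CPM per kb, but 12th on the longest, because its annotated transcripts differ widely in length. Rab32 stood at 112 CPM per kb and Rab27a at 98.1 CPM per kb.

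Several RABs exist as close paralogues with a shared role. Of 11 sets, counting Rab32 with Rab38 as 1, 9 shifted by less than 2 percentage points between the group means. Each paralogue's value here was its share of the set's level per length. A set held almost wholly by 1 paralogue could hardly shift past this bound, so its place below it says little. Rab7b held 0.153% and 0.121% of the Rab7 set in EM-plasma and 0.427% and 0.607% in control libraries. Rab9 held 99.3% and 99.4% of its set in EM-plasma and 99.7% and 99.3% in control libraries. The widest shift was in the Rab3 set, where Rab3a held 24.8% and 24.9% in EM-plasma and 20.3% and 19.9% in control libraries. Rab3d held 74.6% and 73.3% in EM-plasma and 77.9% and 78.6% in control libraries. These shares rest on the median transcript length. On the longest transcript Rab3a was the larger member, with 61.7% and 61.6% in EM-plasma and 55.1% and 54.6% in control libraries, against 37.7% and 36.8% in EM-plasma and 43.0% and 43.8% in control libraries for Rab3d. The share of Rab3a was higher in both treated libraries on either length, as it would be with any lengths. In CPM, Rab3a was above both controls in both treated libraries, while Rab3b and Rab3d were below them. The longest transcript is thus no separate check of this direction. The other set past that bound on the median length was Rab1, in which Rab1a held 48.2% and 50.5% in EM-plasma and 49.6% and 53.4% in control libraries, with overlapping groups. On the longest transcript 8 of the 11 sets shifted by less than 2 points, with Rab32 and Rab38 past the bound as well. These shares were not tested.

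Among the genes that act on RABs, few were called. Of 128 tested partner genes 3 rose and 4 fell, or 5.47%, against 6.21% of all genes called in either direction, and their median log2 fold change was 0.0038. Of 8 genes of GDI and prenylation edgeR called 0, and so did DESeq2 and limma voom. Rabggta, a subunit of the RAB prenyl transferase, lay on the higher side (log2 fold change 0.31, adjusted p = 0.0506) and Chm on the lower, each with an unadjusted p below 0.05. Rabggta was named after its values were seen. Among the alternative fits on all 4 libraries, edgeR called it higher with RLE scaling and with library totals. It did so too with at least 10 reads required in every library and with the replicate block. Gdi2, which holds inactive RABs in the cytosol, had a log2 fold change of -0.06, with overlapping groups (adjusted p = 0.517). Chm encodes an escort protein that presents new RABs for lipid attachment, and its log2 fold change was -0.18 (SE 0.071, adjusted p = 0.137). Rabggtb, the catalytic subunit of the RAB prenyl transferase, had a log2 fold change of 0.06 (adjusted p = 0.622).

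Of 32 tested exchange factors 2 rose and 1 fell, or 9.38%, against 6.21% of all genes called in either direction. Rab3ip, which encodes the Rab8 exchange factor Rabin8, was at 62.5 and 63.2 CPM in EM-plasma and at 53.9 and 54.7 CPM in control libraries (log2 fold change 0.21, SE 0.058, adjusted p = 0.0259). Dennd6b, a DENN-domain gene, had 344 and 363 reads in EM-plasma and 277 and 237 reads in control libraries (log2 fold change 0.51, SE 0.13, adjusted p = 0.0147). Dennd1a, an exchange factor for Rab35, was at 93.6 and 92.2 CPM in EM-plasma and at 109.5 and 103 CPM in control libraries (log2 fold change -0.19, SE 0.053, adjusted p = 0.0273). The groups of these 3 genes did not overlap, as was so for 49.1% of all genes. A call from the same libraries favours this, so it adds no support. Rab8a and Rab35, on which Rabin8 and DENND1A act, had log2 fold changes of -0.0040 and 0.0093.

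The list of GTPase-activating proteins took in every gene with a Tbc1d symbol, whatever its activity. Of its 39 tested genes 0 rose and 1 fell, Tbc1d32, a TBC-family gene of the cilium (log2 fold change -0.27, SE 0.073, adjusted p = 0.0224). Whether Tbc1d32 encodes a protein that acts on a RAB was not tested. Over all genes tested 6.21% were called, against 2.56% of the list of GTPase-activating proteins. Of 41 tested effectors 1 rose and 2 fell (7.32%), and those that fell were Myo5a and Sytl2 described above. The one that rose was Lrrk1, a kinase related to the RAB kinase LRRK2, at 131 and 129 CPM in EM-plasma and at 117 and 107 CPM in control libraries (log2 fold change 0.21, SE 0.052, adjusted p = 0.0134). Without EM-plasma 2 or without control 2 edgeR called 0 partners. Whichever library was left out, Rab3ip, Dennd1a and Tbc1d32 lost their calls. Dennd6b kept its call only without EM-plasma 1, and Lrrk1 only without control 1. In these fits the log2 fold changes of all these genes kept their sign, and that of Rab3ip stayed between 0.20 and 0.23. DESeq2 called 2 higher and 3 lower, and Dennd6b and Tbc1d32 were not among them.

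**Figure D4:**
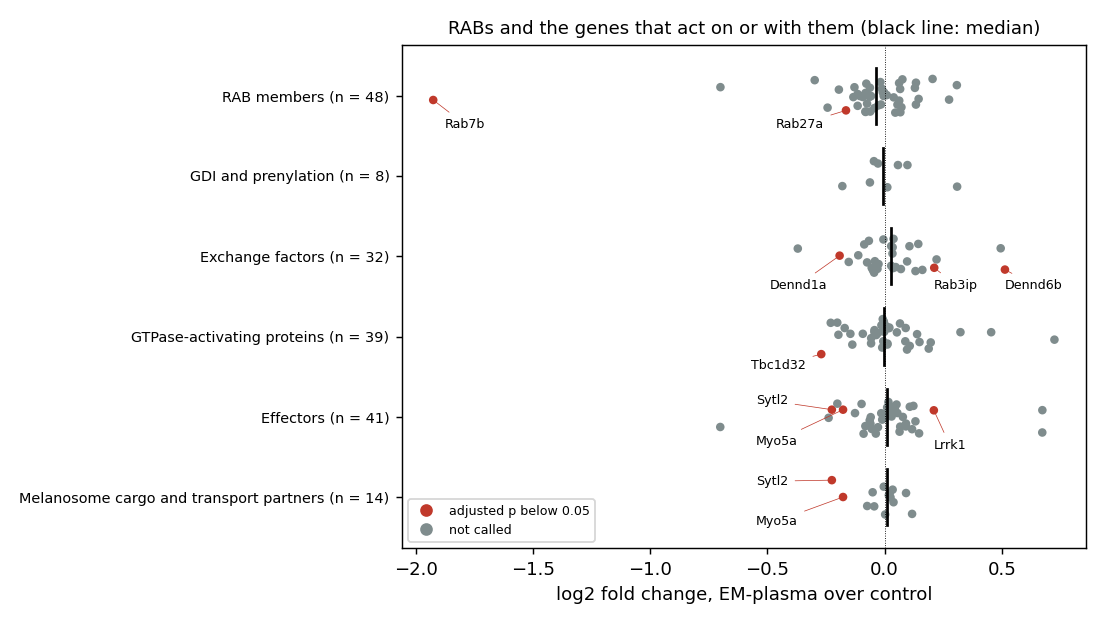
Log2 fold change, EM-plasma over control, of the 48 RAB transcripts and of 5 partner lists, 1 point per tested gene, with red for an adjusted p below 0.05 and a black line for each median. Medians lie near 0 in each list, and Sytl2 and Myo5a appear in both the effector and the melanosome list.

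The 11 RAB symbols under the minimum had few or no reads. Rab17, a RAB of epithelial recycling endosomes, was the member nearest above it with 49 reads, and Rab25, nearest below, had 22. Rab27b had 19 reads, Rab37 had 15, Rab33a and Rab19 had 4 each and Rab40b had 1. Rab3c, Rab26, Rab39, Rab42 and Rab44 had 0 reads in all 4 libraries.

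Some members share sequence with other annotated genes, which can add or remove reads. Of the distinct 50-base words in a member's transcripts, under 1% occurred in transcripts of another gene for 25 of 48 members. Among these were Rab7b, Rab32 and Rab38 with 0%, and the share was 3.59% for Rab27a. Matches on either strand and with genes that overlap at the same locus were included. The share was over 10% for 10 members, led by Rab43 (74.5%), Rab4b (58.1%), Rab2b (57.0%) and Rab24 (49.6%), so their values are less certain. Some overlapping genes had few or no reads of their own. Gm45140 at Rab43 had 6 and 2 reads in EM-plasma and 2 and 0 in control libraries. Gm43766 at Rab2b and Gm21983 at Rab4b had 0 reads. Gm45140 and Gm21983 lie on the same strand as the RAB and share 4164 and 1280 exon bases with it. Such low counts do not show that the RAB counts were unaffected, and loss of reads in shared exons was not tested. Rab20 (22.9%) and Rab7 (12.7%, in part with a Rab7 pseudogene) were also among the 10. Rab24 overlaps Prelid1 on the opposite strand over 1258 exon bases, and Prelid1 had 14641 and 14821 reads in EM-plasma and 16108 and 14888 in control libraries. The strand setting of the counting is not given in the sources used here, so reads of such pairs cannot be told apart.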

How the data were processed

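The labels' protocols describe poly(A) selection and an Illumina stranded mRNA kit. CASAVA, TopHat2 2.1.1, HTSeq, edgeR and the genome GRCm38 are listed in the submitters' processing notes, without an annotation release. The authors deposited whole-number read counts per Ensembl gene, 1 column per library. They also deposited a scaled signal per library, which equalled the count times 1 constant in each library and served only to check the columns. Symbols for 53360 of 53465 rows and transcript lengths came from GENCODE M21 on GRCm38, and the 105 rows with no symbol stayed in the test under their identifiers.

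Counts were filtered with filterByExpr, scaled by TMM and tested with edgeR 4.0.16 (R 4.3.3), quasi-likelihood F test, two-sided, group as the one term. Adjustment was by Benjamini-Hochberg over the 13664 genes, with a threshold of 0.05. CPM use TMM effective library sizes, with n = 2 per group. Each SE was derived from the log2 fold change and its F statistic. The test was tested on simulated data. Alternatives were RLE scaling, library totals, no filter, at least 10 reads in every library, the newer dispersion, DESeq2 1.42.0, limma voom (limma 3.58.1), a replicate block, and leaving out each library.

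The members, role groups and partner lists were chosen with earlier results of these data known. Genes given with values were the called members, the 3 melanosome RABs, the 2 members of each role group highest per length, the 4 largest uncalled changes, the members nearest the read minimum, called partners and 9 fixed partners, of which 1 is not reported here. Members and partners named outside this rule, such as Rab3a, Rab3d, Rab6b and Rab39b, were named after their values were seen. Total counts ran from 46295133 to 49367932.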

Additional observations from a re-analysis of the deposited data

How the results depend on the processing

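RLE scaling, library totals, the filter of 10 reads in every library, the newer dispersion, DESeq2 and limma voom each called Rab27a and Rab7b lower and 0 members higher. With no filter 14 of 22906 genes were called, and members lower numbered 0, partners higher 0 and partners lower 0; the cause was not tested. With the replicate block 8 members were called lower, 0 higher, and partners 9 higher and 5 lower, out of 1683 genes called. The replicate numbers mark no shared culture or day in the labels, so this pairing was not used. The differences between replicates correlated across genes by 0.039 between the groups, with genes of low counts included. On the 2nd principal component of the libraries, with 26.8% of the variance, EM-plasma 1 and control 1 were at -6.81 and -17.5. EM-plasma 2 and control 2 were at 9.73 and 14.5 on it. Whether the replicates share an effect was not tested. Without 1 library, members called lower ran from 0 to 1, partners called higher from 0 to 4 and lower from 0 to 2, and the members' median log2 fold change from -0.086 to -0.0079, lowest without control 1. Of 384 values of 32 named genes under these alternatives 0 reversed a called direction, 41 lost a call and 2, Rab13 and Rab14 with the replicate block, gained one. The cause of these changes was not tested. Among uncalled members with values near 0, leaving out 1 library changed the sign for Rab1b, Rab7 and Rab8a. Library totals and the filter of 10 reads in every library did so for Rab8a. Rab9b, with few reads, changed sign without control 1. With the longest transcript 14 of 17 levels per length moved by more than the spread between replicates. With 2 libraries per group, members under 1 CPM such as Rab17 and Rab9b had 95% intervals reaching past a 2-fold change.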

Other observations

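The more abundant members tended to lie below 0, a split chosen after the values were seen. Of 13 members at a mean of at least 100 CPM, 11 had a log2 fold change below 0, with a median of -0.073, while 61.4% of the 2863 genes at that level did, with a median of -0.021. Of 25 members from 10 to below 100 CPM, 16 were below 0, against 52.3% of 6332 genes. Of 10 members below 10 CPM, 4 were below 0, against 42.1% of 4469 genes. The share below 0 thus rose with level over all genes too. Without control 2 the members below 0 numbered 26 of 48 in all, and without control 1 they numbered 32. Rab27b, the close relative of Rab27a, had 1 and 2 reads in EM-plasma and 7 and 9 reads in control libraries; it was under the read minimum, was named after its values were seen and was not tested.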
